A study of Mus musculus with 5 samples.

Results

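The T cell receptor (TCR) complex, its coreceptors and the first kinases and adaptor it engages were examined as a set of 9 genes: Cd3d, Cd3e, Cd3g, Cd247, Cd4, Cd8a, Lck, Zap70 and Lat. They were chosen by symbol, as every non-control probe whose RefSeq transcript belonged to one of them, which gave 12 of the 55681 probes and 9 of the 20022 genes with a named probe. RNA came from thymic natural killer T (NKT) cells, which are T cells with a TCR that binds lipids presented by CD1d. There were 2 samples from IL15ko mice (genotype IL15-/-, C57BL/6 background), which lack the cytokine interleukin-15, and 3 from wild-type C57BL/6 mice. Each sample was made from 10 pooled thymi, enriched magnetically for T cells and then sorted for cells positive for CD3e and for a CD1d tetramer, and was hybridised to 1 Agilent 1-colour array. No other treatment is named for either group, and age and sex are not given in the sources used here. Both groups were thus gated on the CD3e protein and on a TCR that bound the tetramer, so the presence of Cd3e transcript is a property of the sort and not a finding.

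In a T cell the antigen-binding TCR chains have almost no cytoplasmic part of their own. Signals leave the complex through the CD3 gamma, delta and epsilon chains and the zeta chain encoded by Cd247, whose ITAM motifs are phosphorylated by the Src-family kinase Lck. Phosphorylated ITAMs recruit the kinase ZAP-70, which phosphorylates the membrane adaptor LAT, the platform on which the downstream enzymes assemble. CD4 and CD8 bind MHC molecules and carry Lck. Mouse NKT cells are CD4-positive or lack both coreceptors.

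The question put to these data was how the transcripts of this machinery differed between NKT cells of IL15ko and wild-type mice. Levels are log2 processed signals from the scanner, scaled by subtracting the 75th percentile of the array. That percentile was taken over the 18519 probes detected well above background everywhere, and it is the 0 of the scale. Differences are IL15ko minus wild-type, with limma's standard error (SE) and 95% confidence interval, and a gene was called at a Benjamini-Hochberg adjusted p under 0.05 over the 11997 genes tested. The labels do not say that replicates came from separate pools of mice, so the p-values reflect just the spread among these samples, and that spread may be technical. With 2 arrays against 3, an exact two-sided permutation test of a single gene cannot go below p = 0.1, and the number of arrays limits the precision of every value.

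The share of probes well above background was 45.2% on IL15ko 1 and 33.9% on IL15ko 2, against 44.6% to 49.6% on wild-type arrays, so IL15ko 2 was the dimmest. The probe for Il15, the deleted gene, was well above background on 0 of the 5 arrays and does not check the labels. All 10 NKT cell markers listed were well above background on all 5 arrays. Among 9 markers of double-positive and immature thymocytes, Rag1, Rag2, Ptcra, Cd8a and Cd8b1 were well above background on no array, and the B cell markers Cd79a, Ms4a1 and Pax5 likewise. The log2 summed level of the 5 NK cell markers was 1.55 and 2.08 in IL15ko 1 and 2, against 4.07 to 4.16 in wild-type arrays. That sum rests mostly on Klra8 (mean 0.98 in IL15ko and 3.47 in wild-type cells) and Klrb1c (0.57 and 2.32). Klrb1c, Klra8 and Klre1 were well above background on all 5 arrays, Eomes on 1 and the NK-defining Ncr1 on none. The part of the difference in summed level in the results below was not tested.

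Most of the machinery was measured on every array, and no gene of it passed the test between the groups. Sizes of log2 difference ran from 0.01 for Lck to 0.87 for Cd4, and that of Cd4 was as large as or larger than in 87.5% of genes tested. Of its 12 probes, 10 exceeded background clearly on all 5 arrays, and the other 2, both for Cd8a, did so on none. The other 8 genes were tested, and limma called 0 higher and 0 lower, against 7.33% of all genes tested (3.75% higher and 3.58% lower). At an unadjusted p under 0.05 there were 2 of the 8, Cd4 and Lat, both higher in IL15ko, against 27.5% of all genes tested. In 4 of the 8 the groups did not overlap, against 47.2% of all genes tested. Cd4 and Lat were the 2 that lay higher in IL15ko cells (25.1% of all genes tested), and Cd3d and Cd3g the 2 that lay lower (22.1%). The median log2 difference was -0.02 over the 8 genes and 0.01 over all genes tested. These shares lay near or below those of all genes, so the counts alone do not set the 9 genes apart.

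**Figure D1:**
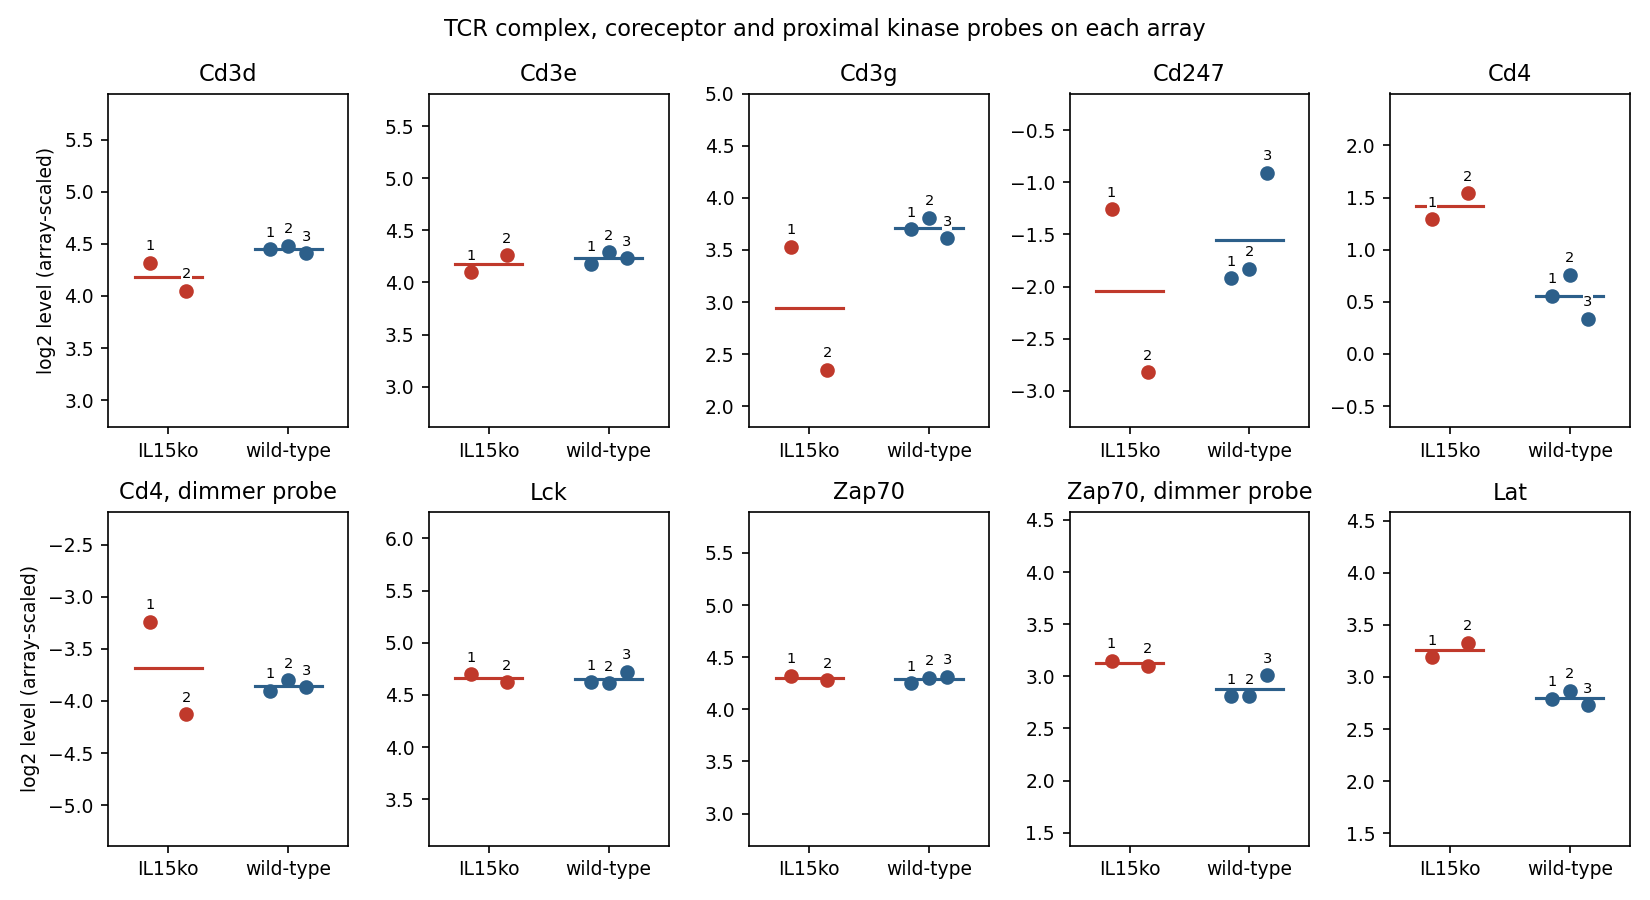
Level of each measured probe on each array (log2, scaled to the array's 75th percentile; every panel spans the same number of log2 units), with IL15ko arrays in red at left and wild-type arrays in blue at right; numbers are replicates and bars are group means. The IL15ko arrays lie above all wild-type arrays for Cd4 and Lat, and IL15ko 2 lies apart from IL15ko 1 for Cd3g and Cd247.

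The CD3 chains are encoded by neighbouring genes on chromosome 9. Cd3d and Cd3g are read in opposite directions from start sites 1355 bases apart, and the starts of Cd3d and Cd3e are 27825 bases apart (RefSeq, GRCm38.p6). Their promoters, from 250 bases before to 50 after each start, are shown because the 3 genes share this locus. Differences among the 3 were not tested. The promoter table held 8 of the 9 genes. Motifs of lymphoid factors were searched on both strands, and every match is in capitals: the E-box CANNTG, an Ets motif CAGGAAG (or its complement CTTCCTG) and the STAT motif TTCNNNGAA. No matches overlapped. The Cd3d window (chr9:44981536-44981835, plus strand) held 1 E-box and 1 STAT match, the Cd3g window (chr9:44980382-44980681, minus strand) 4 E-boxes, and the Cd3e window (chr9:45009562-45009861, minus strand) 2 E-boxes and 1 Ets match.
Cd3d: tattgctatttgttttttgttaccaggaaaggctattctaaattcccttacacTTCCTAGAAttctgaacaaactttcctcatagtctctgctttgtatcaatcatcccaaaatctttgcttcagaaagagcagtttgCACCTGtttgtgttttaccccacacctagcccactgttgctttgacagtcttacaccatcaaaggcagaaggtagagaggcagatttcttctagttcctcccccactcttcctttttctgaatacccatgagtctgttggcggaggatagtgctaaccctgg
Cd3g: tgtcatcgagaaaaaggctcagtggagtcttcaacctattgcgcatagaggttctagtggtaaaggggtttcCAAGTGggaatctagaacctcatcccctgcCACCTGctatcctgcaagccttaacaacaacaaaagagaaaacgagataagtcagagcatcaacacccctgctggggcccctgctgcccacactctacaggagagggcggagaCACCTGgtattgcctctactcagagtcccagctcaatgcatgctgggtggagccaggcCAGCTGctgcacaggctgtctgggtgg
Cd3e: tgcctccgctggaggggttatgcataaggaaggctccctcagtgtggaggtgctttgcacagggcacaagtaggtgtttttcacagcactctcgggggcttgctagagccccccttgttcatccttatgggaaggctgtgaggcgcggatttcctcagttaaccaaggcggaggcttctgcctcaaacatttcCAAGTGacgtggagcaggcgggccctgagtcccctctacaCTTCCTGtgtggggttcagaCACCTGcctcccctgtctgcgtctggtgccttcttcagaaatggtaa
Of 32851 mouse promoters of this length, 72.3% held an E-box, 13.3% the Ets motif and 8.3% the STAT motif. A match describes letters in the window and not binding.

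Cd3e, the epsilon chain that pairs with both CD3 delta and CD3 gamma, had levels of 4.10 and 4.26 in IL15ko 1 and 2, against 4.18, 4.29 and 4.23 in wild-type 1 to 3. The groups overlapped, and the whole spread over 5 arrays was 0.19. The log2 difference was -0.05 ± 0.13 (SE; 95% interval -0.38 to 0.27; limma adjusted p = 0.814), which bounds the fold between 0.769 and 1.21. Without IL15ko 1 it changed sign, to 0.03.

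Cd3d, the delta chain, had levels of 4.32 and 4.05 in IL15ko 1 and 2, against 4.45, 4.48 and 4.41 in wild-type 1 to 3. Both IL15ko arrays lay below all wild-type arrays, IL15ko 2 the lower of the pair. The means were 4.19 ± 0.19 (SD, n = 2) in IL15ko and 4.44 ± 0.03 (SD, n = 3) in wild-type cells. Their log2 difference of -0.26 ± 0.14 (SE; interval -0.61 to 0.09) did not pass the test (limma adjusted p = 0.294). It was -0.39 without IL15ko 1 and -0.12 without IL15ko 2.

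Cd3g, the gamma chain, had the widest gap between its 2 IL15ko arrays among the 3 CD3 genes. Its levels were 3.53 and 2.35 in IL15ko 1 and 2, against 3.70, 3.81 and 3.61 in wild-type 1 to 3. Both IL15ko arrays lay below every wild-type array, but IL15ko 1 by little and IL15ko 2 by more than a log2 unit. The gap between the IL15ko arrays, 1.18, was larger than that of 95.1% of genes tested. The log2 difference was -0.77 ± 0.36 (SE; interval -1.67 to 0.13; limma adjusted p = 0.235), or 1.7-fold lower. Without IL15ko 1 it was -1.36 and was called lower (limma adjusted p = 0.0468), and without IL15ko 2 it was -0.18 (limma adjusted p = 0.582), so its size rests on the dimmest array.

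Cd247, which encodes the zeta chain and with it most of the complex's ITAMs, was the most variable of the 8 genes. Its levels were -1.26 and -2.82 in IL15ko 1 and 2, against -1.92, -1.83 and -0.91 in wild-type 1 to 3. IL15ko 1 fell inside the wild-type range and IL15ko 2 below it, and wild-type 3 was the highest of all arrays. Its residual spread was as large as or larger than that of 96.7% of genes tested, and the gap between its IL15ko arrays, 1.57, exceeded that of 98.2%. The log2 difference of -0.49 ± 0.55 (SE; interval -1.89 to 0.91; limma adjusted p = 0.595) allows a fold from 0.27 to 1.88. Leaving out IL15ko 1 gave -1.27, leaving out IL15ko 2 gave 0.29, and leaving out wild-type 3 gave -0.17, so no direction can be given.

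**Figure D2:**
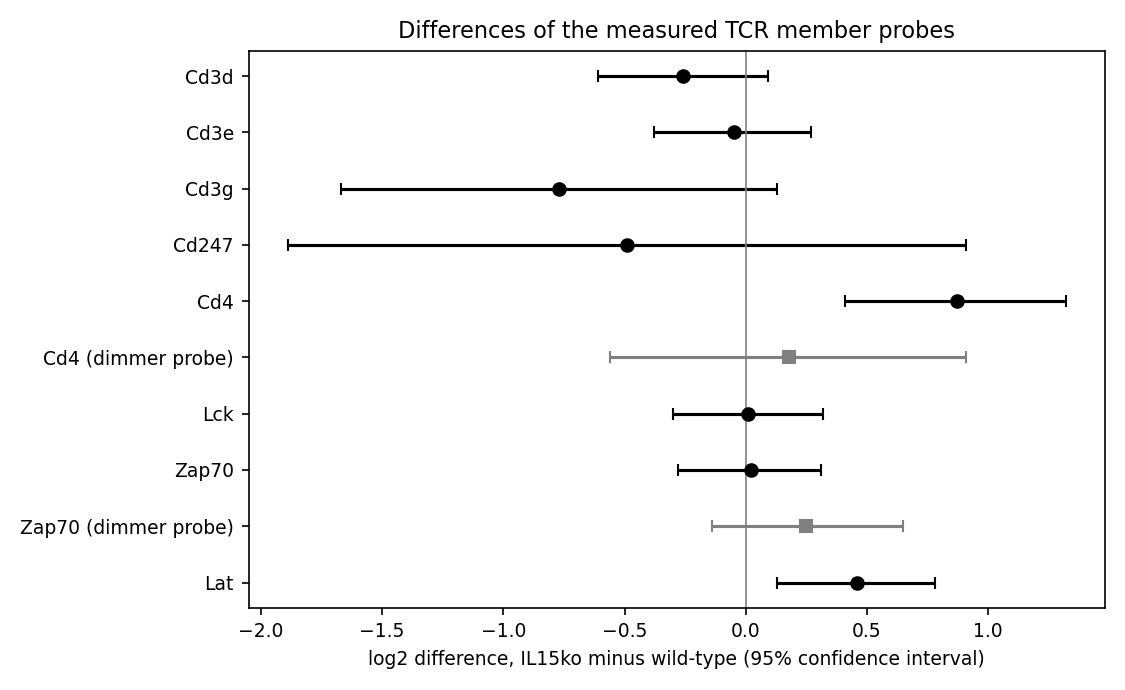
Log2 difference between IL15ko and wild-type arrays for each measured probe, with its 95% confidence interval from limma; black circles are the probes that stand for their genes and grey squares the dimmer probes of Cd4 and Zap70. Among the circles, the intervals of Cd4 and Lat lie above 0, those of Lck and Zap70 are centred near 0, and those of Cd3g and Cd247 are the widest; the intervals of both squares include 0.

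The coreceptors differed in whether they could be measured at all. CD4, which binds MHC class II and brings Lck to the receptor, was measured by 2 probes. The probe that stands for the gene had levels of 1.29 and 1.54 in IL15ko 1 and 2, against 0.56, 0.76 and 0.34 in wild-type 1 to 3. Both IL15ko arrays lay above every wild-type array, and the means were 1.42 ± 0.18 (SD, n = 2) in IL15ko and 0.55 ± 0.21 (SD, n = 3) in wild-type cells. The log2 difference was 0.87 ± 0.18 (SE; interval 0.41 to 1.32), a 1.82-fold higher mean in IL15ko cells. Its limma adjusted p of 0.0531 missed the threshold, and over 17 alternative settings it lay between 0.0109 and 0.215, with 4 calls. As in any bulk sample, a change in the share of CD4-positive cells and a change of Cd4 RNA per cell cannot be told apart.

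The other Cd4 probe was spotted 10 times on each array, and all 10 spots were well above background on every array. Its levels were -3.24 and -4.13 in IL15ko 1 and 2, against -3.90, -3.80 and -3.87 in wild-type 1 to 3. Here the IL15ko arrays lay on either side of the wild-type arrays. The log2 difference was 0.18 ± 0.29 (SE; interval -0.56 to 0.91; limma adjusted p = 0.746 in a fit over probes), and in that same fit the first probe had an adjusted p of 0.0958. The SD between its spots on the log2 scale was 0.057 and 0.182 on IL15ko 1 and 2, against 0.147, 0.138 and 0.076 on wild-type 1 to 3, smaller than the gap of 0.89 between the IL15ko arrays. With both probes averaged, Cd4 had a log2 difference of 0.52 (limma adjusted p = 0.125). The position of each probe within the transcript is not given in the sources used here.

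Immature double-positive thymocytes express Cd4 as well. The log2 summed level of their 9 markers was 0.55 and 0.41 in IL15ko 1 and 2, against -0.09, -0.10 and -0.40 in wild-type 1 to 3, higher on both IL15ko arrays. The part of this difference in the Cd4 values was not tested. Rag1, Rag2, Ptcra, Cd8a and Cd8b1, which define those cells, were well above background on no array.

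Cd8a encodes the alpha chain of CD8, the coreceptor for MHC class I. It had 1 probe with 10 spots and 1 with a single spot, and 0 spots of either were well above background on any array. The probe with 10 spots had a geometric mean processed signal of 4.47 and 3.90 on IL15ko 1 and 2, against 4.54, 4.85 and 3.68 on wild-type 1 to 3. This is the scanner's linear unit before scaling between arrays. The single-spot probe read 3.54 and 3.23 on IL15ko 1 and 2, against 7.75, 8.90 and 3.12 on wild-type 1 to 3. On both probes the 2 groups overlapped. Since neither group was above background, Cd8a was not tested and has no fold. The probe for its partner chain, Cd8b1, was also well above background on 0 arrays.

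**Figure D3:**
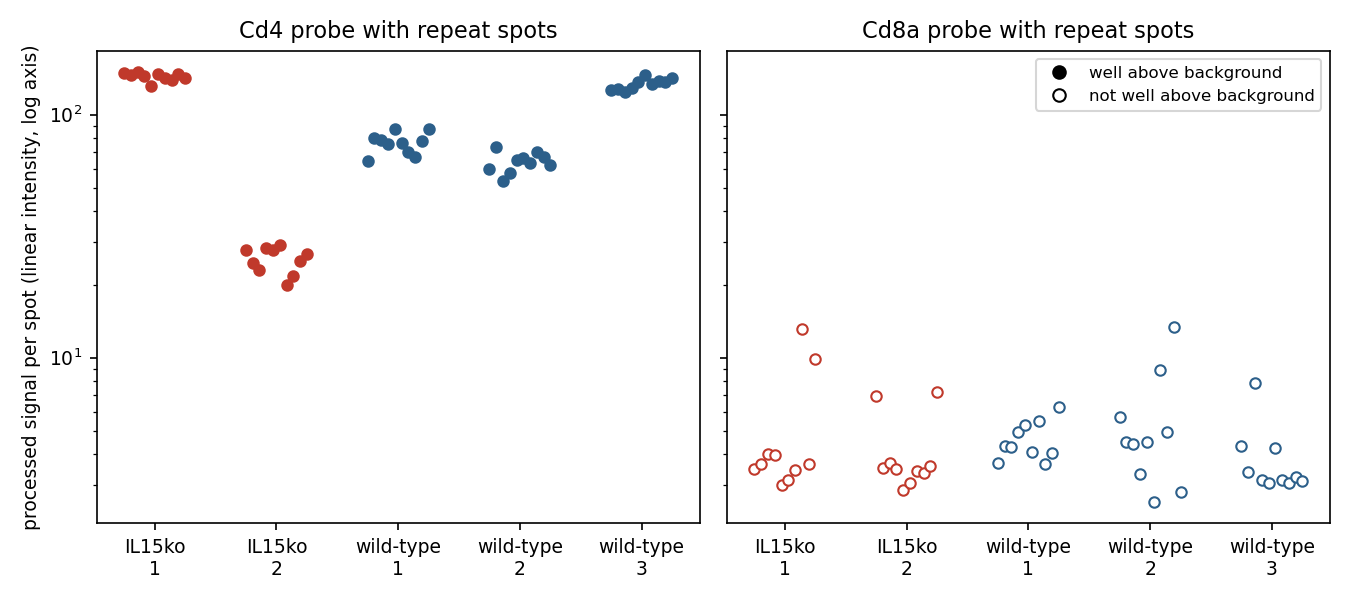
Processed signal of each of the 10 repeat spots (linear intensity on a log axis, before scaling between arrays) of one Cd4 probe at left and one Cd8a probe at right, by array, IL15ko first. Every Cd4 spot was well above background (filled) and no Cd8a spot was (open); the heights of different arrays also carry their overall brightness, which was lowest for IL15ko 2.

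Lck and Zap70, the kinases that act in sequence on the ITAMs, were the steadiest genes of the set. Lck had levels of 4.70 and 4.62 in IL15ko 1 and 2, against 4.62, 4.61 and 4.72 in wild-type 1 to 3. All 5 values lay within 0.11 and the groups overlapped. The log2 difference was 0.01 ± 0.12 (SE; limma adjusted p = 0.973), with an interval of -0.30 to 0.32, or a fold between 0.811 and 1.25. Only 4.8% of genes tested had a residual spread as small as or smaller than that of Lck.

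Zap70 had levels of 4.32 and 4.28 in IL15ko 1 and 2, against 4.25, 4.30 and 4.31 in wild-type 1 to 3. The whole range was 0.07, and 0.667% of genes tested had a residual spread this small or smaller. Its log2 difference was 0.02 ± 0.12 (SE; interval -0.28 to 0.31; limma adjusted p = 0.939), a fold between 0.823 and 1.24. A dimmer Zap70 probe gave 3.15 and 3.10 in IL15ko 1 and 2, against 2.81, 2.81 and 3.01 in wild-type 1 to 3. On this probe both IL15ko arrays lay above the wild-type arrays, and the log2 difference was 0.25 ± 0.16 (SE; interval -0.14 to 0.65; limma adjusted p = 0.394 in the fit over probes). The sign of these values near 0 held under the other scalings and changed with normexp background correction, to -0.05 for both Lck and Zap70, where the median of all genes moved to 0.22. It also changed with the authors' value table (-0.01 for both) and with some arrays left out.

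Lat, the adaptor that ZAP-70 phosphorylates, had levels of 3.19 and 3.33 in IL15ko 1 and 2, against 2.79, 2.87 and 2.73 in wild-type 1 to 3. Both IL15ko arrays lay above every wild-type array. The means were 3.26 ± 0.10 (SD, n = 2) in IL15ko and 2.80 ± 0.07 (SD, n = 3) in wild-type cells. The log2 difference of 0.46 ± 0.13 (SE; interval 0.13 to 0.78), or 1.37-fold, did not pass the test (limma adjusted p = 0.0986). It stayed between 0.39 and 0.54 over the 17 alternatives and was called in 1 of them, the trended robust prior (limma adjusted p = 0.0358).

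**Figure D4:**
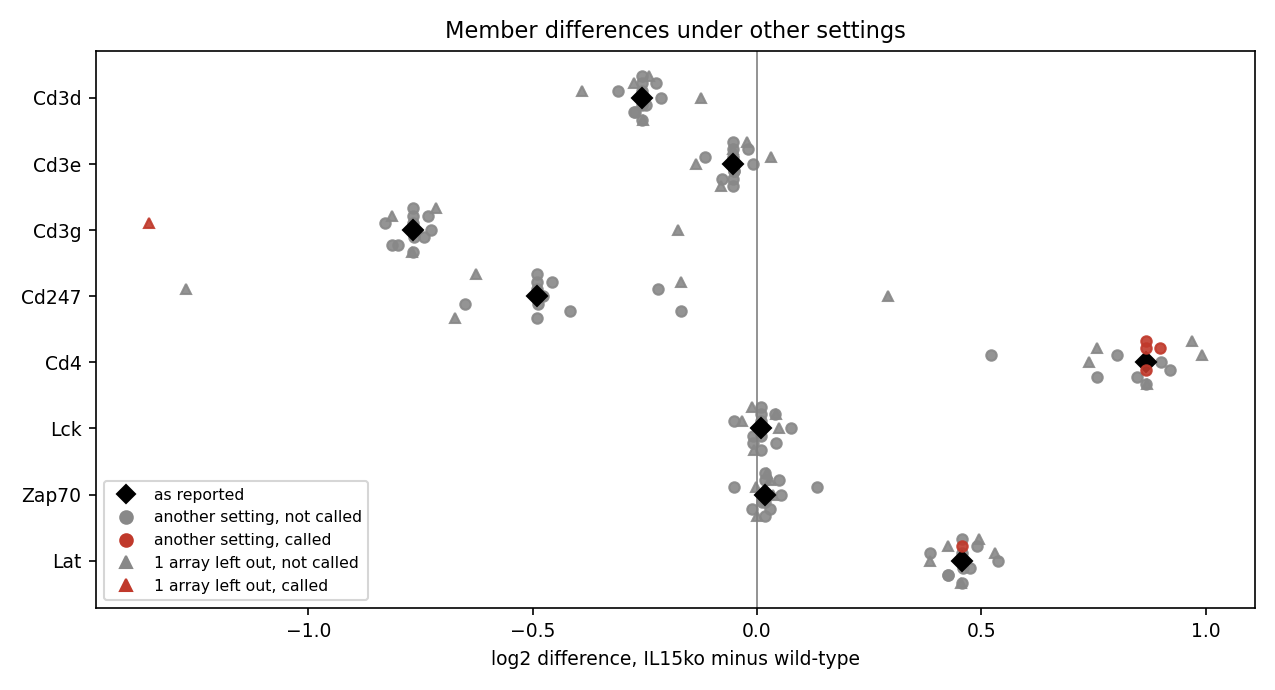
Log2 difference (IL15ko minus wild-type) of each tested gene as reported (diamond), under 12 other settings (circles) and with 1 array left out (triangles); red marks an adjusted p under 0.05. Calls appear for Cd4 in 4 settings, for Lat in 1 and for Cd3g only without IL15ko 1, and Cd247 crosses 0.

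The rest of the proximal pathway was followed through 67 further genes in 5 lists, of which 62 had a named probe and 59 were tested. Limma called 2 higher and 7 lower in IL15ko cells, beside the 3.75% and 3.58% of all genes tested. The median log2 difference of the 59 was -0.16, against 0.01 over all genes tested. Of the genes called lower, Tyrobp entered the test through the wild-type arrays alone. The number of calls changed with the arrays used: leaving out wild-type 1 gave 0, wild-type 2 gave 2 and wild-type 3 gave 8 calls in these lists. Calls over all genes went from 879 to 9, 105 and 784 in the same order, so the drop was not particular to these lists. With 1 array left out, each of the 9 log2 differences kept its sign. Fcer1g was called in 14 of 17 alternatives, Ubash3a in 13 and Tyrobp in 11 of 16, Txk, Malt1 and Ptprj in 9 of 17 and Ptpn22 in 8 of 17.

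Among the adaptors and enzymes that assemble around LAT, 21 of 22 genes were tested, with 1 called higher, 1 lower and a median of -0.16. Txk, a Tec-family kinase of T cells, had levels of -0.13 and 0.03 in IL15ko 1 and 2, against 1.17, 1.04 and 1.17 in wild-type 1 to 3. It was 2.26-fold lower (log2 difference -1.17 ± 0.13, SE; limma adjusted p = 0.0164), with no overlap between groups. Themis, an adaptor needed for thymocyte selection, had levels of -3.11 and -3.36 in IL15ko 1 and 2, against -4.45, -4.42 and -4.96 in wild-type 1 to 3. It was 2.59-fold higher (1.37 ± 0.22; limma adjusted p = 0.0286), while a second Themis probe stood at 0.49. The call was made in 6 of 17 alternatives and was lost with the mean of its probes (0.93), with normexp (0.97) and with the authors' value table (1.16; limma adjusted p = 0.272, 0.253 and 0.0654). The next by p were not called: Fyb, encoding an adaptor that binds SLP-76, at -0.49 ± 0.13, and Was, the actin regulator WASP, at 0.51 ± 0.13 (limma adjusted p = 0.0808 and 0.0811).

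No call was made among the 6 kinases listed beside Lck and Zap70 (0 higher and 0 lower by limma, 1 at an unadjusted p under 0.05), and their median log2 difference was 0.19. Map4k1, encoding the inhibitory kinase HPK1, stood at 0.41 ± 0.13 (limma adjusted p = 0.122). Csk, which phosphorylates the inhibitory tyrosine of Lck, stood at 0.29 ± 0.14, and Fyn, the other Src-family kinase of T cells, at 0.27 ± 0.14 (limma adjusted p = 0.261 and 0.286).

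Of 17 genes listed as brakes of proximal signalling and tested, 3 were called lower and 1 higher, beside 3.58% and 3.75% of all genes tested. The other 13 were not called, and the median was -0.15. The name is that of the list, and the role of each gene was not tested here. Map4k1 and Csk, given above, were listed with the kinases, so these counts do not cover every inhibitor of the pathway. Ubash3a, encoding a suppressor of TCR signalling, had levels of -5.26 and -5.34 in IL15ko 1 and 2, against -3.24, -3.20 and -3.23 in wild-type 1 to 3. Only IL15ko 1 of the IL15ko arrays was well above background. The log2 difference was -2.07 ± 0.12 (SE; limma adjusted p = 0.0059), and no fold is given because the IL15ko 2 value lay below the lowest signal well above background on that array, -4.92. Ptprj, a receptor tyrosine phosphatase, had levels of -4.15 and -4.58 in IL15ko 1 and 2, against -3.03, -2.93 and -3.22 in wild-type 1 to 3, and was 2.47-fold lower (-1.30 ± 0.19; limma adjusted p = 0.0232), with -1.30 and -0.58 on its other probes. After normexp background correction Ubash3a stood at -0.59 and Ptprj at -0.32 (limma adjusted p = 0.427 and 0.579), and Ptprj at -0.82 with the authors' value table (limma adjusted p = 0.066). Ptpn22, the phosphatase that dephosphorylates Lck and ZAP-70, had levels of 0.05 and 0.30 in IL15ko 1 and 2, against 1.24, 1.23 and 1.02 in wild-type 1 to 3. It was 1.99-fold lower (-0.99 ± 0.15; limma adjusted p = 0.0273).

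Cd5, an inhibitory surface receptor whose level follows TCR signal strength in thymocytes, went the other way, with 3.80 on both IL15ko arrays, against 3.12, 3.08 and 3.21 in wild-type 1 to 3. It was 1.58-fold higher (0.66 ± 0.12; limma adjusted p = 0.0398), a call made in 5 of 17 alternatives and lost with median centring (limma adjusted p = 0.0529) and with the percentile over all probes (0.081). Dgkz, a kinase that removes diacylglycerol, stood at 1.04 ± 0.21 (limma adjusted p = 0.051), Dok1 at -0.44 ± 0.12 and the ubiquitin ligase gene Cbl at -0.73 ± 0.21 (limma adjusted p = 0.0877 and 0.107), and these 3 were not called.

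Downstream of LAT, 13 of 14 genes were tested and 1 was called lower, with a median of -0.25. Malt1, a protease on the route from the receptor to NF-kappaB, had levels of -1.56 and -1.47 in IL15ko 1 and 2, against -0.35, -0.46 and -0.45 in wild-type 1 to 3. It was 2.14-fold lower (-1.09 ± 0.12; limma adjusted p = 0.0164). Itpr1, an IP3 receptor that releases calcium, stood at 0.52 ± 0.12, Nfkb1 at -1.11 ± 0.37 and Nfatc1 at -0.52 ± 0.18, none of them called (limma adjusted p = 0.0684, 0.137 and 0.14). The other probe of Nfkb1 had -0.23 and that of Nfatc1 0.24, the opposite sign.

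The ITAM subunits outside the CD3 set had the largest falls among the genes tested in these lists. Fcer1g, the Fc receptor gamma chain, which can take the place of zeta in a TCR complex, had levels of -1.49 and -0.86 in IL15ko 1 and 2, against 1.24, 1.37 and 1.34 in wild-type 1 to 3. It was 5.63-fold lower (-2.49 ± 0.22; limma adjusted p = 0.00917). Tyrobp, encoding DAP12, the ITAM partner of activating NK receptors, had levels of -6.31 and -5.04 in IL15ko 1 and 2, against -2.60, -2.46 and -1.97 in wild-type 1 to 3. It was not well above background on either IL15ko array, and entered the test through the 3 wild-type arrays alone. Its call (limma adjusted p = 0.0186) thus sets signal against readings near background. Tyrobp stood 9.68-fold lower with its IL15ko 2 reading raised to -4.92, the lowest signal well above background on that array. On IL15ko 1 its own reading was kept, as it lay above the lowest such signal there (-6.53). That reading was not itself well above background, so the fold is not a strict lower bound. It also holds only for the scaling used here. The measured log2 difference was -3.33. This difference was -2.69 without IL15ko 1, -3.97 without IL15ko 2, -2.59 with the authors' value table and -1.42 after normexp correction (limma adjusted p = 0.23 in the last). Both Fcer1g and Tyrobp are also NK cell genes. The summed level of the NK markers given above, which rests mostly on Klra8 and Klrb1c, was lower in IL15ko arrays as well. Its part in these falls was not tested. No probe was named for the TCR constant-region genes Trac, Trbc1, Trbc2, Trdc and Trgc1, which were not analysed here.

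**Figure D5:**
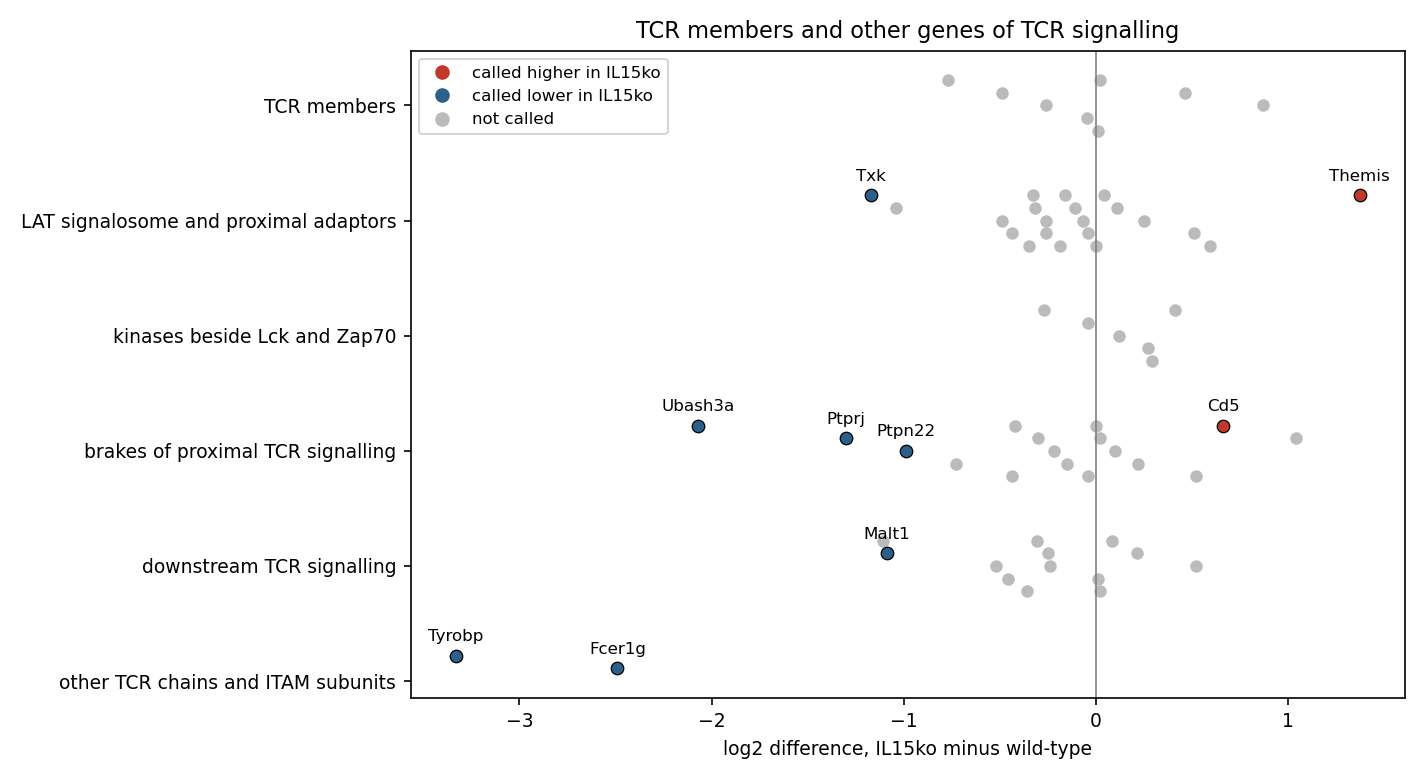
Log2 difference (IL15ko minus wild-type) of every tested gene of the TCR set and of the 5 other lists, 1 point a gene; red marks genes called higher in IL15ko, blue genes called lower and grey genes not called. The points of the TCR set are all grey, and Fcer1g and Tyrobp lie furthest below 0.

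Measured genes of the set were also paired with the listed pathway gene whose profile over the 5 arrays, after subtracting each gene's own mean, was nearest by root mean square (RMS) difference. Lat lay nearest to Was (RMS 0.0312 log2 units) and Cd4 to Dgkz (0.133), both pairs higher on the IL15ko arrays. Cd3e lay nearest to Stk4 (0.0315), which encodes the kinase MST1, and Lck and Zap70 both to Ptpn11 (0.0377 and 0.0384), which encodes the phosphatase SHP-2. Cd3g lay nearest to Pag1 (0.171) and Cd247 to Plcg1 (0.225), and in both pairs IL15ko 2 was the lowest array. Pag1 read -7.13 on IL15ko 2, below the lowest signal well above background on that array, -4.92. The nearness of Cd3g and Pag1 thus rests in part on a reading that was not above background. For Cd3e, Lck and Zap70 a small RMS says only that both profiles of a pair were nearly flat. The values describe 5 arrays that share 1 scaling.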

How the data were processed

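The deposited scanner files give an intensity per spot on a linear scale. They were written by Agilent Feature Extraction 10.7.1.1 for an array designed on build mm9, per the file headers. The processed signal in them is background-subtracted and not scaled across arrays. Limma is named too in the submitters' processing notes. The authors' deposited value table, also linear intensity, was used as an alternative. For bright spots it equals the spot median minus the background median plus a constant per array. Its column medians are 24.4 and 15.7 for IL15ko and 25.2, 22.6 and 26.0 for wild-type arrays.

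Control and outlier spots were left out, the log2 values of the spots of a probe were averaged, and each array's 75th percentile was subtracted. RefSeq accessions matched to GRCm38.p6 named 26425 of 55681 probes and left 29256 unnamed. Each gene took its brightest probe, and was tested where that probe exceeded background on 2 or more arrays. The test was limma's (version 3.58.1, R 4.3.3; lmFit, eBayes), with no covariate. The fit was tested on simulated data. No spot was saturated. The scanner files hold no mean signal, so normexp used the median signal with offset 50. All arrays were on 1 slide in 1 scan, so neither could be tested as a batch.

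Alternatives changed the scaling, background correction, source of values, filter, variance prior, probe rule and replicates, and left out each array. Members and lists were chosen with earlier results of these data known. From the other lists, called genes and up to 3 more per list by smallest p were named; some are not reported here.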

Additional observations from a re-analysis of the deposited data

How the results depend on the processing

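Genes of the TCR set were called higher in 4 of 17 alternatives. Cd4 was called with the 75th percentile over all probes (0.90, limma adjusted p = 0.0367), with median centring (0.87, 0.044), with only genes above background on all 5 arrays (0.87, 0.0295) and with a trended robust prior (0.87, 0.0109), giving counts of 1, 1, 1 and 2, since the trended prior also called Lat (0.46, 0.0358). The count called lower was 0 to 1 with 1 array left out, the 1 being Cd3g. With 1 array left out, the log2 difference of Cd3e ran from -0.136 to 0.031, of Cd3g from -1.36 to -0.18, of Cd247 from -1.27 to 0.29, of Lck from -0.034 to 0.05 and of Zap70 from -0.002 to 0.036. Lck was -0.051 with normexp, -0.01 with the authors' table and -0.009 with wild-type 1 and 2 averaged, and Zap70 was -0.052 and -0.012 with normexp and the authors' table. The cause was not tested. The 9 calls among the other listed genes became 0 with normexp, 0 with no filter, 14 with the trended prior, 2 with wild-type 1 and 2 averaged, 3 with the replicate block and 0 to 8 with 1 array left out. Calls over all genes, 879, became 1, 3, 1515, 101, 379 and 9 to 784 in the same order. The median of all genes moved to 0.22 with normexp and 0.24 with no filter. The labels do not say that replicate numbers pair the samples. Deviations of IL15ko 1 and wild-type 1 correlated at -0.129 over genes, those of IL15ko 2 and wild-type 2 at 0.209. With 2 IL15ko arrays, the deviations of IL15ko 2 are those of IL15ko 1 with the opposite sign. Each correlation of IL15ko 2 is therefore fixed by that of IL15ko 1, and these values cannot decide whether the samples were paired. With the replicate block, Cd4 had 0.76 (limma adjusted p = 0.0843) and 0 genes of the set were called. The normexp alternative used the median signal in place of the mean signal. Signals near background limit Cd8a, and the dimness of IL15ko 2 bears on every value that rests on it.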
